A study of Mus musculus with 80 samples.

Results

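The livers of 4 female mice given PFESA-BP2 at 0.3 mg/kg-day were set against the livers of 4 control mice by RNA sequencing. PFESA-BP2, also known as Nafion byproduct 2, is a fluorinated ether sulfonic acid formed in the making of the Nafion polymer. The 8 libraries were taken by their titles from a table of 20 libraries (numbers 13 to 16 for the treated mice and 1 to 4 for the controls), and all 22103 gene rows entered, of which 15197 had enough counts to be tested. All mice were Balb-C females, 10 to 12 weeks old, with no genetic change named in the labels, and were gavaged for 7 days, 1 dose a day. The other groups (0.03 mg/kg-day, 3.0 and 6.0), with 4 mice each, are used here for the context of dose. Their mice also entered the filter on low counts, the scaling and the estimate of spread behind each p-value, in 1 fit of all 20 libraries. Whether the controls received DMSO, as their titles have it, or deionized water, as the design text has it, is not settled, and the group is called control here. Each library was sequenced over 4 lanes and stands for 1 mouse, so p-values describe the spread between mice. In whole liver, fewer cells of a type and less RNA per cell cannot be told apart.

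The liver answers many foreign chemicals through nuclear receptors. The constitutive androstane receptor (CAR) and the pregnane X receptor (PXR) switch on cytochrome P450 enzymes of the Cyp2b, Cyp2c and Cyp3a families, together with conjugating enzymes and export pumps, while PPARA governs fatty acid oxidation and the Cyp4a genes. A further layer of control in rodent liver is growth hormone: its pulse pattern acts through STAT5 and sets many P450, serpin and other genes at different levels in females and males.

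At 0.3 mg/kg-day, 44 of the 15197 genes tested passed an adjusted p of 0.05 (0.290%), 21 of them higher (0.138%) and 23 lower (0.151%) in the treated mice. The genes that rose were led by the P450 genes Cyp2c55, Cyp2b10 and Cyp2c29, and those that fell by the serpin pseudogene Serpina4-ps1, the dynein gene Dnaic1 and the P450 gene Cyp3a16. Among the genes that passed, the falls were the larger. Of the 23 falls, 21 were 2-fold or more with a median log2 change of -1.71, against 9 of the 21 rises with a median of 0.93. A group mean of 10 CPM or more was reached by 15 of the falls and 18 of the rises. The part of level in the difference of size was not tested. Of the 44, 34 were annotated as protein coding, 4 as pseudogenes and 6 as other RNAs, and 10 had a mean under 1 CPM (counts relative to the size of the library) in at least 1 group. In all 44 genes the 4 treated and the 4 control mice did not overlap. Over all genes tested, 3.71% had every treated mouse above every control and 2.97% had every treated mouse below, 6.69% together. At an unadjusted p under 0.05 there were 651 genes higher (4.28%) and 650 lower (4.28%), and the median log2 change of all genes was -0.02. Log2 changes were above 0 for 7113 genes and below 0 for 8083. Over all genes, DESeq2 passed 99 higher and 87 lower, and voom 18 and 21.

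**Figure D1:**
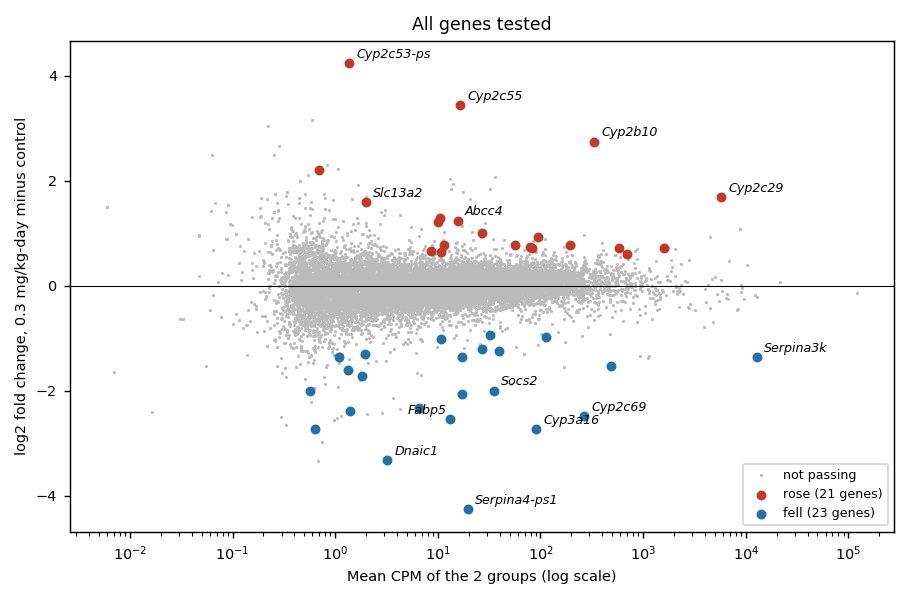
Log2 change at 0.3 mg/kg-day against control for each gene tested, plotted against mean level in CPM on a log axis, with the 21 genes that rose and the 23 that fell marked. The rises reach 4.24 (Cyp2c53-ps) and the falls -4.26 (Serpina4-ps1), both at low or moderate level, and Serpina3k and Cyp2c29 lie among the most abundant.

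Totals of the 8 libraries ran from 13086755 to 21466978 counts. Library 3 (control) and library 15 (treated) stood apart from their groups: on the first component of the variation within groups, which held 42.7% of it, they scored 0.40 and 0.27, while the other 6 lay between -0.197 and -0.0202. The other dose groups each held 1 such library too (scores of 0.38 to 0.43), and in all 5 groups it was the third by library number; no label ties these libraries together. With those libraries given a term of their own, 306 genes passed, all 44 among them, and without them 158 passed, of which 36 were among the 44. The 8 genes lost without them were Cdkn1a, Vnn1, Slc13a2, Slc2a1, Serpina6, Gm15611, Gm16048 and 9530027J09Rik (adjusted p up to 0.0903). Leaving out 1 of the 8 mice at a time left 12 to 51 genes passing. The same 12 of the 44 passed in each of the 8 fits, 28 passed in 1 to 4 of them, and 4 passed in none (9530027J09Rik, Adam11, Slc25a25 and Slc2a1, with an adjusted p up to 0.196). The 12 were Cyp2c55, Cyp2b10, Cyp2c29, Cyp2c53-ps and Gstt3 among the rises, and Serpina4-ps1, Dnaic1, Cyp3a16, Cyp2c69, Gm6166, Prok1 and Ankrd55 among the falls. The direction of each of the 44 was the same in the alternatives that gave it a value; 5730420D15Rik and Rnf225 had none under a filter of 1 CPM in 4 libraries.

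The tissue label was met by the hepatocyte genes: albumin stood at 101617 to 145316 CPM in the controls and 110655 to 121294 CPM in the treated mice. Of 14 hepatocyte markers tested, 0 passed in edgeR (3 at an unadjusted p under 0.05), 2 passed in DESeq2 and 0 in voom. Summed levels of the markers of other cells overlapped between the groups for Kupffer cells, stellate cells, cholangiocytes, lymphocytes and neutrophils. They did not overlap for the 18 markers of sinusoidal endothelium (545 to 571 CPM in controls, 576 to 637 CPM in treated mice) or for the 6 erythroid markers tested (529 to 966 against 356 to 506 CPM). None of the markers in these lists passed in edgeR, with 4 endothelial and 0 erythroid markers at an unadjusted p under 0.05, and in DESeq2 1 endothelial marker passed. The part of these 2 shifts in the results below was not tested. Of 5 adipocyte and 6 skeletal muscle markers 0 had enough counts to be tested, and of 8 pancreatic acinar markers only Cela1 had (log2 change -0.53, adjusted p = 0.543).

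The 3 protein-coding P450 genes that rose most are shown by the 250 bases before their start, a region where transcription factors can act. Sequence farther upstream was not searched. The windows are RefSeq's on GRCm38.p6: chr7:25897408-25897657 for Cyp2b10, chr19:39006769-39007018 for Cyp2c55 and chr19:39286835-39287084 for Cyp2c29, all on the plus strand. Capitals mark TATAAA (the TATA box), AGGTCA (a single nuclear receptor motif, which is also part of the direct repeats searched) and GCGTG (the core of the AhR element), found on either strand.
Cyp2b10: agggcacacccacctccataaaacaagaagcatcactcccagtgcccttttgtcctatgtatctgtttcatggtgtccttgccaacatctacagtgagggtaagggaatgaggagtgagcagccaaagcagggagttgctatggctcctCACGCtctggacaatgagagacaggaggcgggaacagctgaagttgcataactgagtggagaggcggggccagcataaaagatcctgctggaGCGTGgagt
Cyp2c55: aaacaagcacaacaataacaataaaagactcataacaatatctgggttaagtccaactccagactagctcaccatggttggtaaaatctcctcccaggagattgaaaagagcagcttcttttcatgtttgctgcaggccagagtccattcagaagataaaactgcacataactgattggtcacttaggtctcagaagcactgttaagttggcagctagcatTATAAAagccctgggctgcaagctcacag
Cyp2c29: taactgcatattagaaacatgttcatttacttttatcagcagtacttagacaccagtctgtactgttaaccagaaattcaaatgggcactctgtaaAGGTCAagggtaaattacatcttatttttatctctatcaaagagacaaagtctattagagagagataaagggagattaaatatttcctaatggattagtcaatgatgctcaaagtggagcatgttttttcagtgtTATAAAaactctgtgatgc
TATAAA began 29 bases before the start in Cyp2c55 and 19 before it in Cyp2c29, and was not among the letters of the Cyp2b10 window. Of all 32851 RefSeq windows, 12.4% held TATAAA on some strand in the 250 bases before the start, the stretch searched for each motif. AGGTCA began 154 bases before the start of Cyp2c29, against 14% of all windows, and GCGTG lay 9 and 101 bases before that of Cyp2b10, against 28.2%. Direct repeats of AGGTCA, 2 copies spaced by 4 bases or by 1, were in 0.0152% and 0.0335% of all windows and in none of those of the called genes. Windows were found for 14 of the 21 rises and 13 of the 23 falls. Repeats this rare would hardly be met in so few windows, so their absence says nothing about the called genes. Besides Cyp2c29 and Cyp2c55, TATAAA was in the windows of Slc13a2, Cyp3a16 and Prok1.

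Cyp2c55, a P450 known as a strongly inducible CAR and PXR target, went from near the bottom to a moderate level. It stood at 2.27, 3.54, 1.94 and 3.25 CPM in the controls and at 29.5, 26.4, 25.6 and 38.6 CPM in the treated mice. The lowest treated mouse was far above the highest control. The rise was 10.8-fold (log2 change 3.43 ± 0.29 SE, adjusted p = 2.36e-06). Cyp2b10, the classic CAR target of mouse liver, stood at 72.0, 93.6, 64.8 and 117 CPM in the controls and at 444, 426, 753 and 707 CPM in the treated mice. The treated mice formed a lower and a higher pair, both clear of the controls, and the rise was 6.7-fold (log2 change 2.74 ± 0.25, adjusted p = 5.12e-06). Cyp2c29, an abundant P450 already high in control liver, stood at 2464, 3216, 2569.8 and 2766 CPM in the controls and at 7421, 7614, 10939.5 and 9438 CPM in the treated mice. Every treated mouse exceeded every control by a wide margin, and the rise was 3.21-fold (log2 change 1.68 ± 0.16, adjusted p = 5.12e-06). Without any 1 mouse the adjusted p of these 3 genes was at most 6.78e-05.

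**Figure D2:**
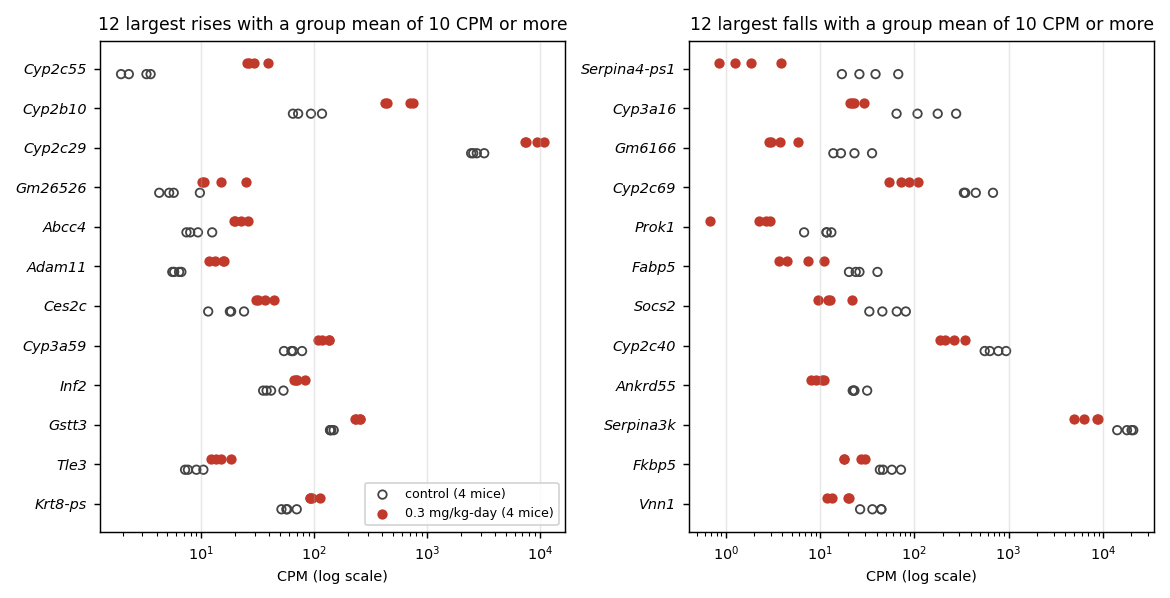
Level in CPM (log axis) of the 12 largest rises (left) and the 12 largest falls (right) among genes with a group mean of 10 CPM or more; each point is 1 mouse, open for control and filled red for 0.3 mg/kg-day. In each gene the 4 treated mice lie on 1 side of the 4 controls, widest apart in Cyp2c55 and Serpina4-ps1.

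Cyp2c53-ps is a transcribed pseudogene on chromosome 19. In GENCODE M21 its span overlaps that of Cyp2c29 by 5581 bases on the same strand. The RefSeq window before the start of Cyp2c29 ends at 39287084, beyond the GENCODE end of Cyp2c53-ps at 39274985, so the overlap depends on the annotation. Cyp2c53-ps rose from 9 counts summed over the 4 controls to 206 over the 4 treated mice. Its mean went from 0.137 ± 0.109 to 2.60 ± 0.862 CPM (SD, n = 4; log2 change 4.24 ± 0.49 SE, adjusted p = 0.000105), and no source used here says how reads were divided between overlapping genes. Cyp2c50, a further Cyp2c enzyme, stood at 1206, 1245, 1163 and 1257 CPM in the controls and at 1919, 1769.6, 2063 and 2239.7 CPM in the treated mice, with no overlap (log2 change 0.71 ± 0.13, adjusted p = 0.0244). Cyp3a59, a Cyp3a gene, stood at 53.9, 62.8, 64.9 and 78.0 CPM in the controls and at 135, 117, 109 and 135 CPM in the treated mice (log2 change 0.93 ± 0.20, adjusted p = 0.0479). The treated mice were again all above the controls. Both calls rested on the full set of mice: Cyp2c50 lost it without library 1, 2, 3, 15 or 16 (adjusted p up to 0.109), and Cyp3a59 without any library but 4 (up to 0.184). Cyp2c50 and Cyp2c37 have transcripts 96.9% identical and Cyp3a59 and Cyp3a25 97.0%, so counts may be split between them. Cyp2c37 had a log2 change of 0.42 ± 0.15 (adjusted p = 0.369) and Cyp3a25 of 0.49 ± 0.16 (adjusted p = 0.279).

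Among 78 P450 genes tested (symbols that begin with Cyp and a number), 6 rose and 3 fell, 11.5% against 0.290% of all genes. Of the 44 genes, 7 lay on chromosome 19 (15.9%), where the Cyp2c cluster is, against 3.43% of the tested genes with a known position. The gene lists were written from general knowledge with earlier results of these data known, so their counts are not independent of these data. Of 52 tested genes listed as CAR targets, 8 rose and 0 fell in edgeR, against 0.138% and 0.151% of all genes. The 8 were Cyp2c55, Cyp2b10, Cyp2c29, Gstt3, Ces2c, Abcc4, Cyp2c50 and Papss2. At an unadjusted p under 0.05, 28 of the 52 were higher and 1 was lower, and the list's median log2 change was 0.41 against -0.02 for all genes. DESeq2 passed 12 higher and 1 lower, and voom 8 and 0. Summed over the list, levels ran from 15608 to 19075 CPM in the controls and from 27335 to 31824 CPM in the treated mice. Cyp2c29 alone accounted for 2754 CPM of the control mean and 8853 CPM of the treated mean. Of 19 PXR targets, which share members with that list, 3 rose (Cyp2c55, Cyp2b10 and Cyp3a59) and 1 fell (Cyp3a16), with 11 higher and 4 lower at an unadjusted p under 0.05 and a median of 0.44. Several well-known targets of these receptors missed the threshold. Cyp3a11, the main PXR-induced P450, was at 5602 ± 1875 CPM in the controls and 11828 ± 2223 CPM in the treated mice (log2 change 1.08 ± 0.27, adjusted p = 0.0983), and passed in DESeq2 (adjusted p = 0.00613) and in edgeR without the libraries that stood apart (0.017). Por, the electron donor of the P450s, had 0.81 ± 0.26 (0.257), and Alas1, which starts haem synthesis, 0.45 ± 0.30 (0.765). The receptor genes gave -0.55 ± 0.14 for Nr1i3, which encodes CAR (0.122), and 0.26 ± 0.17 for Nr1i2, which encodes PXR (0.744).

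**Figure D3:**
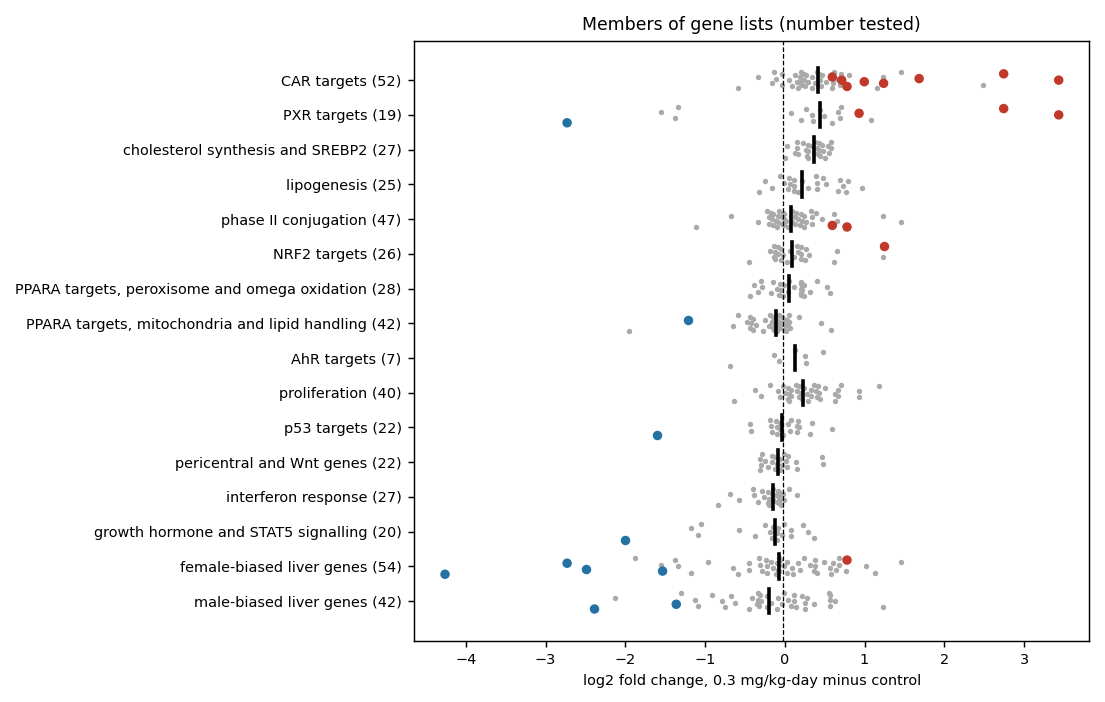
Log2 change at 0.3 mg/kg-day of the members of each gene list, 1 point per gene with the list's median marked by a bar, genes that rose in red and genes that fell in blue; the dashed line is the median of all genes, -0.02. CAR and PXR targets have medians of 0.41 and 0.44, and cholesterol synthesis genes of 0.36 with 0 genes passing.

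Other genes that rose act in hydrolysis, conjugation and transport. Ces2c, a carboxylesterase, stood at 17.9, 18.3, 11.5 and 23.9 CPM in the controls and at 31.9, 30.6, 44.2 and 36.4 CPM in the treated mice (log2 change 1.00 ± 0.18, adjusted p = 0.0234). Abcc4, the export pump MRP4, stood at 7.95, 7.37, 9.32 and 12.4 CPM and at 20.0, 19.6, 25.7 and 22.3 CPM (1.24 ± 0.23, adjusted p = 0.0244). Gstt3, a theta-class glutathione transferase, stood at 149, 139, 142 and 138 CPM and at 231, 234, 254 and 255 CPM (0.78 ± 0.12, adjusted p = 0.00386). In each of these 3 genes the groups were clear of each other, and Gstt3 varied least within its groups. Papss2, which makes the sulfate donor PAPS, went from 554 ± 92.2 to 837 ± 29.7 CPM (log2 change 0.60 ± 0.12, adjusted p = 0.0457). Slc13a2, a dicarboxylate transporter, was low and went from 0.981 ± 0.411 to 2.99 ± 0.53 CPM (1.59 ± 0.30, adjusted p = 0.0266), and Slc2a1, the glucose transporter GLUT1, from 8.42 ± 0.613 to 13.1 ± 1.39 CPM (0.64 ± 0.13, adjusted p = 0.0472). Only Gstt3 of these 6 passed without each mouse in turn. Ces2c was lost without library 1, 2, 15 or 16 (adjusted p up to 0.0996), Abcc4 without 1, 2, 3, 14, 15 or 16 (0.142), Papss2 without any but 4 (0.185), Slc13a2 without 1, 2, 3, 13, 15 or 16 (0.145) and Slc2a1 without any 1 of the 8 (0.196). Ces2c is 96.1% identical to Ces2d-ps over 1684 bases, so counts may be split between them. Ces2d-ps had a log2 change of 0.71 (adjusted p = 0.632).

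Of 47 tested phase II conjugation genes 2 rose (Gstt3 and Papss2) and 0 fell in edgeR, with 10 higher and 1 lower at an unadjusted p under 0.05. DESeq2 passed 4 higher and 1 lower, and voom 2 and 0. Of 26 targets of NRF2, the sensor of electrophiles, 1 rose (Abcc4) and 0 fell, with 4 higher and 0 lower at an unadjusted p under 0.05, and 3 rose in DESeq2 and 1 in voom. Among its members, Gstm3 was at 6.11 ± 1.57 and 14.4 ± 3.14 CPM (log2 change 1.23 ± 0.29, adjusted p = 0.0842), Gsta2 had 0.62 ± 0.24 (0.416), Ugdh 0.65 ± 0.18 (0.165) and Nqo1, the list's best known member, -0.13 ± 0.27 (0.955). Abcc3, a related pump, had 0.59 ± 0.21 (0.367), and Ces2a, the abundant relative of Ces2c, 0.69 ± 0.24 (0.35). Of 7 tested targets of the dioxin receptor AhR, 0 passed in edgeR, DESeq2 or voom and 0 had an unadjusted p under 0.05. Cyp1a1 stood at 1.09 ± 0.338 and 1.31 ± 0.273 CPM (0.25 ± 0.92, adjusted p = 0.981) and Cyp1a2 at 298 ± 99.3 and 416 ± 75.3 CPM (0.48 ± 0.28, adjusted p = 0.706).

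The remaining rises had varied roles. Serpina6, corticosteroid-binding globulin, went from 438 ± 111 to 724 ± 91.4 CPM (log2 change 0.72 ± 0.15, adjusted p = 0.0479). Its highest control, library 4 at 603 CPM, lay just under its lowest treated mouse at 608 CPM. Adam11, an ADAM family protein without protease activity, stood at 5.73, 6.64, 5.51 and 6.34 CPM and at 15.6, 15.8, 13.1 and 11.7 CPM (1.21 ± 0.25, adjusted p = 0.0458). The kinase gene Sgk2, from 63.1 ± 7.56 to 103 ± 13.3 CPM, had 0.71 ± 0.13 (0.0244). Tle3, a Groucho-type corepressor, stood at 7.16, 10.4, 9.02 and 7.59 CPM and at 12.0, 14.8, 18.2 and 13.5 CPM (0.78 ± 0.16, 0.0427), and Inf2, a formin, at 37.8, 41.4, 35.2 and 53.4 CPM and at 65.9, 68.8, 83.3 and 70.5 CPM (0.78 ± 0.16, 0.0458). In all of these the groups were apart, by least in Serpina6. Gtf3a, which encodes the RNA polymerase III factor TFIIIA, rose by 0.65 ± 0.13 (0.0427). Gm26526 stood at 5.68, 5.17, 9.69 and 4.22 CPM and at 10.1, 14.8, 24.6 and 10.6 CPM (1.29 ± 0.26, 0.0427), with library 3 highest of the controls and library 15 highest of the treated. Gm16048, annotated antisense to Npr1, rose by 2.20 ± 0.42 (0.0266) at a mean of 1.14 CPM. The keratin pseudogene Krt8-ps stood at 57.7, 56.6, 70.0 and 51.2 CPM and at 91.5, 91.9, 113 and 95.4 CPM (0.73 ± 0.14, 0.0244), while Krt8, of which it is a 98.6% copy, had 0.17 (0.777). These 9 calls were each lost without at least 5 of the 8 mice taken singly, with an adjusted p up to 0.209 for Serpina6, 0.145 for Adam11 and Gm16048, 0.106 for Sgk2, 0.163 for Tle3, 0.172 for Inf2 and Gtf3a, 0.184 for Gm26526 and 0.103 for Krt8-ps.

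Among the P450 genes, 3 fell. Cyp3a16, a Cyp3a gene known to be higher in female and young mice, stood at 108, 64.9, 278 and 177 CPM in the controls and at 23.1, 21.8, 29.0 and 20.8 CPM in the treated mice. The controls spread widely, with library 3 highest, while the treated mice lay close together and below them all, and the fall was 6.63-fold (log2 change -2.73 ± 0.37, adjusted p = 0.000833). Cyp2c69, a P450 higher in females, stood at 449, 336, 684 and 347 CPM and at 72.9, 53.7, 109 and 88.7 CPM. It was 5.6-fold lower in the treated mice, without overlap (log2 change -2.49 ± 0.39, adjusted p = 0.00395). Cyp2c40, its neighbour, which is also higher in females, stood at 779, 634, 942 and 559 CPM and at 211, 187, 347 and 262 CPM, again without overlap (log2 change -1.53 ± 0.31, adjusted p = 0.0352). Cyp3a16 and Cyp2c69 passed without each mouse in turn. Cyp2c40 lost its call without library 1, 2, 3, 13, 14 or 16 (adjusted p up to 0.127).

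Cyp2c40 and Cyp2c69 lie next to each other on the minus strand of chromosome 19 (GRCm38, GENCODE M21: 39767071 to 39812814 and 39842814 to 39886799). Their transcripts are 97.7% identical, and Cyp2c40 is still nearer to Cyp2c68 (98.0%; log2 change -0.44, adjusted p = 0.272), so counts may be split among these genes. Both are shown by the sequence before their starts because it is nearly the same. The aligned stretches are RefSeq's on GRCm38.p6, chr19:39812815-39813034 and chr19:39886800-39887019, both minus strand. Each ends at the base before the GENCODE start. The 2 RefSeq windows aligned at an offset of 30 bases, so the Cyp2c69 stretch ends 30 bases before the end of its window. Capitals mark the mismatches.
Cyp2c40: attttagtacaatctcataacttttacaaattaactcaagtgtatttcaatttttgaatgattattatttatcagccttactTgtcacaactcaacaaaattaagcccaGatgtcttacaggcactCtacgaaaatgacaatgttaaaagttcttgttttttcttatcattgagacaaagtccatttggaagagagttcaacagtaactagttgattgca
Cyp2c69: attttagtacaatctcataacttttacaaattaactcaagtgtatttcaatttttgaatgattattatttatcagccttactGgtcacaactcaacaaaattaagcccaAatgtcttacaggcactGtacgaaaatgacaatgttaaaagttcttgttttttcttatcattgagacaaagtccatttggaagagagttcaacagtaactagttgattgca
Of the 220 bases, 217 matched and 3 did not, 98.6% identity, and the mismatch nearest to the start lay 94 bases before that of Cyp2c40.

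Across the Cyp2c family, 4 of 16 tested genes rose and 2 fell, with 7 higher and 4 lower at an unadjusted p under 0.05. Summed Cyp2c levels ran from 8247 to 9736 CPM in the controls and from 13204 to 17544 CPM in the treated mice. In the Cyp3a family, 1 of 10 rose and 1 fell, with 4 higher and 4 lower at an unadjusted p under 0.05. Cyp3a41a, 92.2% identical to Cyp3a16, had a log2 change of -1.38 (adjusted p = 0.183), and Cyp3a44 of -1.35 (0.165). Of 3 tested Cyp2b genes, Cyp2b10 rose. Cyp2b13 had 0.60 ± 0.16 (0.122), and Cyp2b9 0.38 ± 0.16 (0.491).

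**Figure D4:**
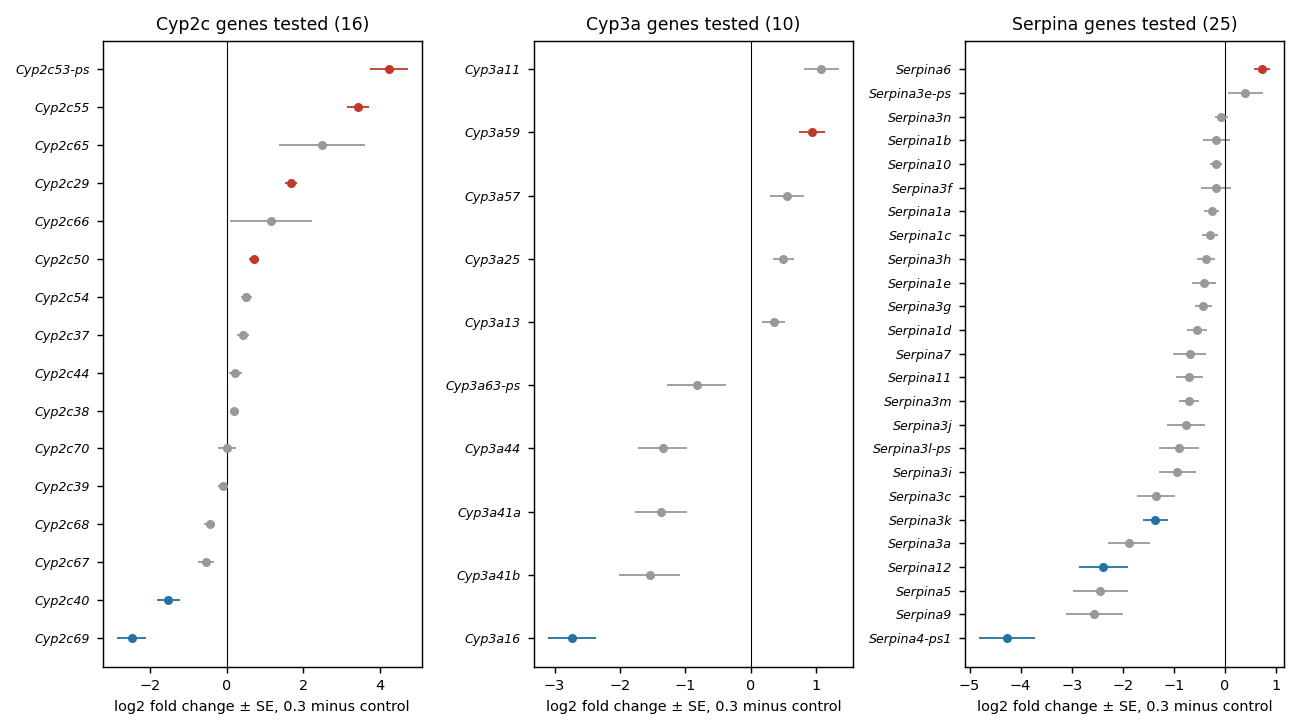
Log2 change at 0.3 mg/kg-day of each tested gene in the Cyp2c (16), Cyp3a (10) and Serpina (25) families, with bars of ± 1 SE, red for genes that rose, blue for genes that fell and grey for the rest. The P450 families hold genes on both sides of 0, and 23 of 25 Serpina genes lie below it, against 8083 of all 15197 genes.

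The serpin A genes, which encode secreted protease inhibitors and hormone carriers, had changes mostly below 0. Of 25 tested, 3 fell (Serpina4-ps1, Serpina12 and Serpina3k) and 1 rose (Serpina6), all 4 on chromosome 12. Log2 changes were below 0 for 23 of the 25, against 8083 of all 15197 genes. The serpin median was -0.69, and 15 serpin genes were lower and 1 higher at an unadjusted p under 0.05. Summed levels ran from 37004 to 50082 CPM in the controls and from 23353 to 28990 CPM in the treated mice. Serpina3k alone accounted for 18365 CPM of the control mean and 7151 CPM of the treated mean. DESeq2 passed 7 lower and 1 higher. Serpina3k, a kallikrein-binding serpin and one of the most abundant transcripts here, stood at 18038, 21023, 20182 and 14215 CPM in the controls and at 8631, 4928, 8789 and 6257 CPM in the treated mice. The groups were well apart, and the fall was 2.57-fold (log2 change -1.36 ± 0.24, adjusted p = 0.0215). Serpina4-ps1, a pseudogene, stood at 17.1, 38.9, 67.7 and 26.2 CPM and at 3.84, 1.88, 1.25 and 0.842 CPM. It had the largest fall of all, 19.2-fold (log2 change -4.26 ± 0.55, adjusted p = 0.000482). Serpina12, which encodes vaspin, was low and went from 2.32 ± 1.12 to 0.443 ± 0.0632 CPM (-2.39 ± 0.48, adjusted p = 0.0383). Serpina4-ps1 passed without each mouse in turn, whereas Serpina3k lost its call without library 1, 2, 14 or 16 (adjusted p up to 0.0987) and Serpina12 without any but 3 or 4 (0.156). The annotated span of Serpina3m covers that of Serpina3k on the same strand, so reads of the 2 may not be told apart.

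Socs2, the feedback inhibitor of the growth hormone receptor that STAT5 induces, stood at 65.3, 45.9, 81.4 and 33.4 CPM in the controls and at 22.1, 9.53, 12.1 and 12.7 CPM in the treated mice. The controls varied more than 2-fold and the treated mice lay below them all, with a 4-fold lower level (log2 change -2.0 ± 0.35, adjusted p = 0.0142). The call was lost without library 1, 14, 15 or 16 (adjusted p up to 0.0856). Gm9847 is 99.6% identical to Socs2 over 452 bases and had a log2 change of -2.44 (adjusted p = 0.0896), so some counts may be shared. The noncoding RNA 5730420D15Rik, whose annotated 5′ end lies 195 bases from that of Socs2 on the opposite strand of chromosome 10, fell by 2.73 on the log2 scale, from 80 counts over the 4 controls to 13 over the 4 treated mice (adjusted p = 0.0246). It was lost without library 1, 2, 13, 14 or 16 (up to 0.123). Of 20 tested genes of growth hormone and STAT5 signalling, only Socs2 fell and 0 rose in edgeR, with 6 lower and 0 higher at an unadjusted p under 0.05, and 4 fell in DESeq2 and 1 in voom. Egfr had -1.08 ± 0.26 (0.0925) and the transcription factor gene Onecut1 -1.06 ± 0.26 (0.11). Igf1, the main growth hormone product of liver, was at 1105 ± 169.6 and 745 ± 39.0 CPM (-0.57 ± 0.16, adjusted p = 0.18). Cish, a further STAT5 target, gave -0.01 ± 0.30 (0.999), the repressor gene Bcl6 0.36 ± 0.35 (0.852) and Cux2, a repressor higher in females, -1.18 ± 0.36 (0.227).

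Genes known to differ between female and male liver were among those that passed. Of 54 tested female-biased genes, 4 fell (Serpina4-ps1, Cyp3a16, Cyp2c69 and Cyp2c40) and 1 rose (Gstt3), with 14 lower and 10 higher at an unadjusted p under 0.05. The median log2 change was -0.07. Of 42 tested male-biased genes, 2 fell (Serpina3k and Serpina12) and 0 rose, with 8 lower and 3 higher at an unadjusted p under 0.05 and a median of -0.20. DESeq2 passed 8 lower and 5 higher of the first list, and 6 lower and 0 higher of the second. Hsd3b5, a male-biased steroid dehydrogenase, had -2.13 ± 0.48 (0.0642). The female-biased A1bg, which encodes a plasma protein, had -1.88 (0.088).

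Other falls were spread over many functions. Dnaic1, a dynein chain of motile cilia, went from 5.88 ± 1.87 to 0.58 ± 0.177 CPM (log2 change -3.33 ± 0.33, adjusted p = 9.16e-06), with the lowest control at 3.48 CPM and the highest treated mouse at 0.746 CPM. Prok1, a prokineticin, stood at 11.8, 13.2, 11.7 and 6.79 CPM and at 2.66, 2.26, 2.94 and 0.684 CPM (-2.34 ± 0.36, adjusted p = 0.00388). The A630076J17Rik gene overlaps it on the opposite strand and had -2.35 (0.123). Ankrd55 stood at 22.8, 22.3, 31.7 and 23.2 CPM and at 9.00, 11.2, 10.6 and 8.0 CPM (-1.36 ± 0.20, adjusted p = 0.00302), with library 3 highest of the controls. The groups of these 3 genes were far apart, and the 3 passed without each mouse in turn.

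Fabp5, a fatty acid binding protein, stood at 40.7, 24.0, 26.2 and 20.3 CPM in the controls and at 11.0, 7.46, 3.71 and 4.42 CPM in the treated mice (log2 change -2.07 ± 0.39, adjusted p = 0.0244). Gm6166, a processed copy of Fabp5 on chromosome 9, stood at 35.7, 23.2, 16.7 and 13.9 CPM and at 5.86, 3.03, 2.89 and 3.74 CPM (-2.53 ± 0.41, adjusted p = 0.00628). They are 98.3% identical over 409 bases, so reads of one can be counted as the other. Both were lower in every treated mouse, and library 1 was highest of the controls in both. Gm6166 passed without each mouse in turn, and Fabp5 was lost without library 1, 2, 14, 15 or 16 (adjusted p up to 0.123).

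Fkbp5, a co-chaperone gene that glucocorticoids induce, stood at 57.9, 46.7, 72.4 and 43.2 CPM and at 29.996, 17.8, 27.2 and 17.8 CPM (log2 change -1.24 ± 0.25, adjusted p = 0.0352). Slc25a25, a mitochondrial carrier of ATP-Mg and phosphate, went from 149 ± 25.7 to 75.3 ± 18.6 CPM (-0.99 ± 0.21, 0.0458), and Nlrp12, a NOD-like receptor gene, from 14.4 ± 3.33 to 7.14 ± 1.48 CPM (-1.02 ± 0.20, 0.0352). In these 3 genes every treated mouse was below every control. The remaining falls were Klhdc8a (-1.30 ± 0.26, 0.0352), the RING finger gene Rnf225 (-2.0 ± 0.39, 0.0352, under 1 CPM in most mice), and the RNAs Gm15611 (-1.71 ± 0.32, 0.0244), 9530027J09Rik (-1.35 ± 0.28, 0.0458) and Gm2788 (-0.94 ± 0.20, 0.0488). The span of Gm2788 overlaps those of Nav2 and E2f8, and that of 9530027J09Rik overlaps Utp14a on the opposite strand. Each of these 8 calls was lost without at least 6 of the 8 mice taken singly, with an adjusted p up to 0.166 for Fkbp5, 0.136 for Slc25a25, 0.145 for Nlrp12 and Klhdc8a, 0.154 for Rnf225, 0.0996 for Gm15611, 0.185 for 9530027J09Rik and 0.179 for Gm2788.

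Vnn1 and Cdkn1a were lower at 0.3 mg/kg-day and higher at the top dose. Vnn1, a pantetheinase and a known PPARA target, stood at 44.7, 44.8, 36.0 and 26.7 CPM in the controls and at 19.8, 13.5, 11.9 and 20.4 CPM in the mice at 0.3 mg/kg-day, without overlap (log2 change -1.21 ± 0.25, adjusted p = 0.0427). Its mean was already 19.0 CPM at 0.03 mg/kg-day, with a log2 difference of -0.22 between 0.3 and 0.03 (adjusted p = 1). Its means were 52.6 CPM in the group at 3.0 and 135 CPM in the group at 6.0 mg/kg-day. Cdkn1a, which encodes the cell cycle inhibitor p21, went from 2.02 ± 0.619 to 0.668 ± 0.16 CPM (-1.60 ± 0.34, adjusted p = 0.0479), with means of 1.21 CPM in the group at 0.03, 5.49 CPM in the group at 3.0 and 7.99 CPM in the group at 6.0 mg/kg-day. The contrast between doses uses no control mouse, but it uses the same mice at 0.3 mg/kg-day by which both genes were called. In it, Vnn1 was higher at 6.0 than at 0.3 mg/kg-day by 3.04 on the log2 scale (adjusted p = 1.4e-07) and Cdkn1a by 3.57 (2.57e-07). The falls at 0.3 mg/kg-day were less secure than these differences: both were lost without any library but 4, with an adjusted p up to 0.172 for Vnn1 and 0.206 for Cdkn1a, and both without the libraries that stood apart (0.054 and 0.0534).

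Of the PPARA targets listed, Vnn1 was the only one that passed in edgeR. Of 28 tested genes of peroxisomal and omega oxidation, 0 passed in edgeR and voom and 2 fell in DESeq2, with 1 higher and 4 lower at an unadjusted p under 0.05 and a median log2 change of 0.05. Of 42 genes of mitochondrial oxidation and lipid handling 1 fell and 0 rose, with 2 higher and 4 lower at an unadjusted p under 0.05, and the median was -0.11. Cyp4a10 had 0.24 ± 0.18 (0.79) and Cyp4a14 0.53 ± 0.30 (0.699), the P450s usually taken as signs of PPARA activity. Acot1, a thioesterase, had -0.59 ± 0.20 (0.321), Pdk4 -0.11 ± 0.22 (0.953), Cpt1a -0.14 ± 0.13 (0.848), the fatty acid transporter gene Cd36 0.58 ± 0.21 (0.373) and Ppara itself -0.05 ± 0.18 (0.983). The hormone gene Fgf21 was listed near 1 CPM in the controls and 0.253 ± 0.119 CPM in the treated mice (-1.96 ± 0.50, 0.122). Of 10 ketogenesis genes 0 passed in edgeR and voom and 1 fell in DESeq2, with 1 lower at an unadjusted p under 0.05: Acat1 had -0.57 ± 0.13 (0.0565).

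Set against the other doses, which share the control mice, the comparison at 0.3 mg/kg-day was the lowest with genes that passed: 0 of 15197 genes passed at 0.03 mg/kg-day (0%, with 565 at an unadjusted p under 0.05), 4.61% at 3.0 and 22.4% at 6.0 mg/kg-day. Of the 44 genes, 34 had an unadjusted p under 0.05 at 0.03 mg/kg-day, against the same control mice. The 44 were chosen by their distance from these control mice, which favours such a share. It is thus not independent evidence of a change at 0.03 mg/kg-day. Dnaic1 had a log2 change of -1.88 there (adjusted p = 0.0502). Contrasts between treated groups use no control mouse. They do use the mice at 0.3 mg/kg-day by which the 44 genes were called. For those genes the contrasts are thus not independent of the calls, and differences back towards the control level are favoured. Between 0.03 and 0.3 mg/kg-day 3 genes differed (0.0197%), and these were Cyp2c55 (log2 difference 2.34, adjusted p = 0.000437), Cyp2b10 (1.53, 0.0211) and Cyp2c29 (1.24, 0.000923), each higher at 0.3. Of the 44 genes, none of the falls differed between these doses. From 0.3 to 3.0 mg/kg-day 3.28% of genes differed, among them 8 of the 21 rises and 2 of the 23 falls. From 0.3 to 6.0 mg/kg-day 27.8% differed, among them 14 of the rises and 10 of the falls.

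The courses over dose of these rises differed. Cyp2c55 had means of 2.75, 5.94, 29.99, 344 and 646 CPM from control to the top dose, and Cyp2b10 of 86.9, 202, 583, 1582 and 2247 CPM. Cyp2c29 had 2754, 3749, 8853, 8526 and 7989.6 CPM, with a log2 difference of -0.15 between 6.0 and 0.3 mg/kg-day (adjusted p = 0.504). The means of Cyp2c55 and Cyp2b10 were thus higher at each dose than at the one before, while the Cyp2c29 means at the 3 upper doses lay close together. Abcc4 (1.45, 9.65e-05), Ces2c (1.88, 4.79e-07) and Gstt3 (1.12, 1.45e-06) were higher at 6.0 than at 0.3 mg/kg-day. Gm26526 (-0.80, 0.0266), Gtf3a (-0.38, 0.0368) and Inf2 (-0.59, 0.0107) were lower there.

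Among the falls, Cyp2c40 had means of 728, 447, 252, 147 and 37.9 CPM over the 5 dose levels and was lower at 6.0 than at 0.3 mg/kg-day by a log2 difference of -2.73 (adjusted p = 4.44e-06). Cyp2c69 (-2.92, 2.6e-05), Dnaic1 (-1.75, 0.00716), Serpina3k (-0.86, 0.0123), Slc25a25 (-1.08, 0.000716) and Socs2 (-1.04, 0.0329) were also lower at 6.0. Fkbp5, at 55.0, 26.7, 23.2, 22.0 and 24.6 CPM, and Ankrd55, at 25.0, 12.8, 9.69, 8.99 and 12.4 CPM, did not differ detectably between 0.3 and 6.0 mg/kg-day (log2 differences 0.09, adjusted p = 0.827, and 0.36, 0.201). Besides Vnn1 and Cdkn1a, Nlrp12 (0.56, 0.0468) and 9530027J09Rik (1.09, 0.0076) were higher at 6.0 than at 0.3 mg/kg-day.

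**Figure D5:**
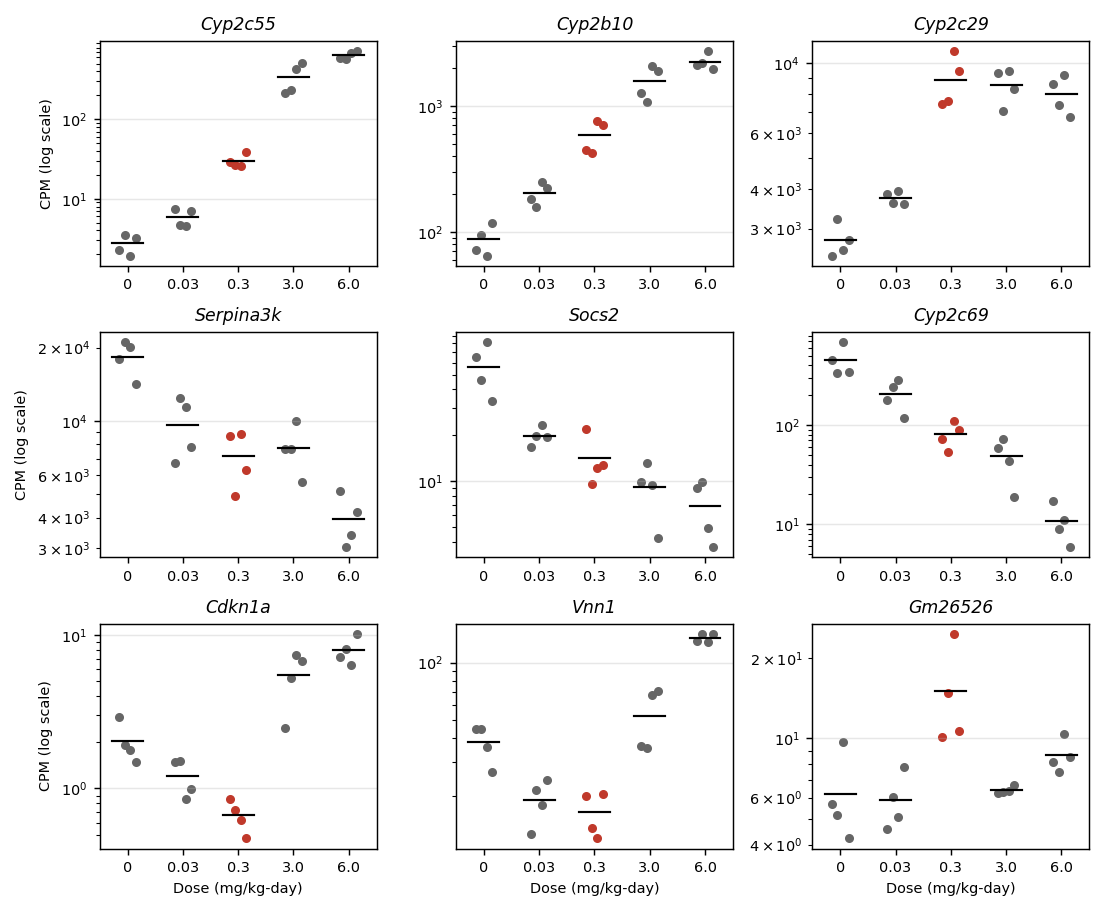
Level in CPM (log axis) of single genes in the control group and at the 4 doses in mg/kg-day, with the 4 mice of each dose as points and the mean as a line, 0.3 mg/kg-day in red. Cyp2c55 and Cyp2b10 have higher means at each dose, Cyp2c29 has means of 8853, 8526 and 7989.6 CPM from 0.3 mg/kg-day on, and Vnn1 and Cdkn1a have means below control at 0.03 and 0.3 mg/kg-day and above it at 3.0 and 6.0.

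Changes of lipid synthesis genes were mostly above 0, and 0 of them passed in edgeR. Of all 15197 genes, 7113 had changes above 0. Of 27 tested genes of cholesterol synthesis and SREBP2, 0 passed in edgeR and voom and 1 rose in DESeq2, with 10 higher and 0 lower at an unadjusted p under 0.05. Their log2 changes were above 0 for 26 and the median was 0.36: Lss, which closes the sterol rings, had 0.58 ± 0.16 (0.169). Of 25 lipogenesis genes 0 passed in edgeR and voom and 3 rose in DESeq2, with 8 higher and 0 lower at an unadjusted p under 0.05 and a median of 0.21. Acly, which makes cytosolic acetyl-CoA, had 0.77 ± 0.19 (0.0996), Acss2 0.48 ± 0.12 (0.122) and the regulator Srebf1 0.29 ± 0.20 (0.779). Of 23 genes of glucose production and glycogen, 0 passed in edgeR and voom, with 1 higher and 2 lower at an unadjusted p under 0.05 and 1 in each direction in DESeq2. Pck1, a key step of gluconeogenesis, had -0.91 ± 0.21 (0.0684).

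Genes of mitochondrial ribosomes and of the interferon response lay mostly a little below 0. Of all 15197 genes, 8083 lay below 0. Of 80 mitochondrial ribosomal protein genes 0 passed in edgeR and voom and 2 fell in DESeq2, with 10 lower and 0 higher at an unadjusted p under 0.05, 71 below 0 and a median of -0.22. Mrpl20 came nearest (-0.72 ± 0.16, adjusted p = 0.0541). Of 27 interferon response genes 0 passed in edgeR, DESeq2 and voom, with 4 lower and 0 higher at an unadjusted p under 0.05, 25 below 0 and a median of -0.15. Mx1, an antiviral GTPase, had -0.84 ± 0.33 (0.439). Of 27 acute phase genes 0 passed in edgeR and voom and 1 fell in DESeq2, with 3 higher and 1 lower at an unadjusted p under 0.05. Saa1, the serum amyloid gene, stood at 9.58, 12.7, 10.1 and 24.0 CPM in the controls and at 7.73, 53.6, 78.7 and 62.6 CPM in the treated mice, so that library 13 lay within the controls (1.85 ± 0.61, adjusted p = 0.289).

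Of 40 cell cycle genes 0 passed in edgeR, DESeq2 and voom, with 4 higher and 0 lower at an unadjusted p under 0.05, and their median was 0.23. Of the 40, 33 were above 0, against 7113 of all 15197 genes. Their summed levels did not overlap, at 115 to 131 CPM in the controls and 138 to 150.4 CPM in the treated mice. How often the sums of other lists of this size would not overlap was not tested. Top2a had 0.67 ± 0.37 (0.692), Mki67 0.33 ± 0.32 (0.86) and Ccnd1, cyclin D1, -0.81 ± 0.25 (0.251). Of 22 p53 targets only Cdkn1a passed, and Gdf15 had 0.59 ± 0.20 (0.318), while the damage gene Gadd45b, which was not in that list, had 0.29 ± 0.36 (0.898). Of 21 bile acid genes 0 passed in edgeR and voom and 1 fell in DESeq2, with 0 higher and 2 lower at an unadjusted p under 0.05. Cyp7a1, the rate-limiting enzyme of bile acid synthesis, had -0.70 ± 0.34 (0.594). Of 30 urea cycle and amino acid genes 0 passed in edgeR, DESeq2 and voom, with 6 higher and 0 lower at an unadjusted p under 0.05, and Cps1 had 0.46 ± 0.18 (0.422). The clock (21 genes), proteasome (31) and pericentral (22) lists had 0 genes passing in edgeR, DESeq2 and voom, with 1, 3 and 0 members at an unadjusted p under 0.05. The lists of ER stress (20) and of complement and coagulation (36) had 0 passing in edgeR and voom, with 4 and 3 at an unadjusted p under 0.05 and 2 and 1 passing in DESeq2.

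The genes that came nearest to the threshold without passing were Tmem243 (0.58 ± 0.12), Slc15a4 (0.84 ± 0.18) and Lrtm1 (0.72 ± 0.15), each with an adjusted p of 0.0513. Next, each at 0.0541, came Ank3 (0.73 ± 0.16), Snhg11 (1.06 ± 0.23), Mmp19 (0.44 ± 0.10), Serpina9 (-2.56 ± 0.56) and Mrpl20 (-0.72 ± 0.16). Slc15a4, a lysosomal histidine and peptide transporter, stood at 38.3, 59.2, 65.4 and 77.2 CPM in the controls and at 89.2, 98.3, 145 and 98.6 CPM in the treated mice, without overlap. In all, 102 genes had an adjusted p under 0.1.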

How the data were processed

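Liver RNA of 20 mice was measured by sequencing, and each of the 20 libraries, run over 4 lanes, has 1 column in the deposited table. Its values are expected counts per gene as the authors deposited them; 58.0% are whole numbers, and the unit was read from the values. Partek and the genome build GRCm38.p5 are named, per the submitters' processing notes. Which aligner, annotation and counting rule made the counts, and whether strand was used, is not stated in the sources. The title calls the sequencing targeted, but no list of targets was used here and the table has 22103 rows. There were 0 columns left unused.

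Counts were rounded. Rows with low counts were left out by edgeR's filterByExpr on the dose groups (6906 of 22103, leaving 15197), and libraries were scaled by TMM factors. The edgeR quasi-likelihood test (edgeR 4.0.16, R 4.3.3) was run in 1 fit of all 20 libraries with a mean per dose group and 15 residual degrees of freedom, with Benjamini-Hochberg adjustment over all genes tested. The threshold was an adjusted p under 0.05, and every adjusted p in the text, also one in parentheses after a log2 change, is from this fit unless another tool is named. The SE of a log2 change is its size divided by the square root of F. CPM values are on the scaled totals and not per gene length, so they are compared within a gene only. The 8 libraries totalled 13086755 to 21466978 counts, and the biological coefficient of variation was 0.219. The script was tested on simulated counts.

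Alternatives were other scaling, other filters, the 8 libraries alone, a term for or removal of the libraries that stood apart, limma-voom (limma 3.58.1), DESeq2 1.42.0 and the removal of each mouse. Gene positions and overlaps are from GENCODE M21 on GRCm38, matched by symbol for 20992 rows (95.0%); near copies were found with blastn 2.17.0 (200 aligned bases or more, at 90% identity or more); upstream sequences are RefSeq's (GRCm38.p6). The named genes are all that passed, a fixed set of well-known liver genes, members of each list with the smallest p, and the 8 nearest misses, apart from some that are not reported here; per-mouse values are given for up to 12 rises and 12 falls by size, with a group mean of 10 CPM or more, and for Saa1, Slc15a4 and Cyp2c50, chosen after their values were seen. The comparison, the gene lists and the fixed set were chosen with earlier results of these data known, and lists come from general knowledge and share members.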

Additional observations from a re-analysis of the deposited data

Results flagged for a closer look

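In 5 of 90 groups of 4 mice examined, 1 mouse lay far from the other 3, and chance alone flags about 1 in 20 groups. Control library 3 was high for Ankrd55 at 31.7 CPM (the others 22.3 to 23.2) and low for Sgk2 at 51.8 CPM (66.2 to 67.9). Control library 1 was high for Rnf225 at 1.43 CPM (0.731 to 0.745), and control library 4 was high for Serpina6 at 603 CPM (363 to 397). Treated library 13 was low for Papss2 at 793 CPM (847 to 856). Cdkn1a and Vnn1 were below control at 0.3 mg/kg-day and above it at 6.0 mg/kg-day, and the difference between these doses, 3.57 for Cdkn1a and 3.04 for Vnn1 on the log2 scale, passed in edgeR.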

How the results depend on the processing

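The number of genes that passed was 44 (21 higher, 23 lower), and moved by over 1.5 times under 3 settings besides the removal of mice. A term for the libraries that stood apart gave 306 (141 higher, 165 lower), their removal 158 (67 higher, 91 lower) and DESeq2 186 (99 higher, 87 lower). Other scaling, other filters, limma-voom and the 8 libraries alone gave 32 to 50. The 8 libraries alone gave 50, but only 29 of the 44 were among them. Of the 44, 31 passed when scaled by library totals only, 32 without a filter on low counts and 37 in limma-voom. Lost with the 8 libraries alone were, among others, Ces2c (adjusted p in that fit 0.0809), Papss2 (0.113), Serpina6 (0.143) and Gm26526 (0.16). Without 1 mouse the counts ran from 12 to 51 in all, from 5 to 23 higher and from 7 to 28 lower, the fewest in all without library 16 and the most without library 4; the cause was not tested. Of the 746 values of the 44 genes under the alternatives, 489 stayed past the threshold, 257 did not and 0 changed sign (2 genes had no value under 1 filter). No paired analysis was made, because the labels give the groups no shared mouse numbers. The libraries that stood apart were the third of each group by number, and a block by place in the numbering was not fitted. Low counts limit Cyp2c53-ps, 5730420D15Rik, Rnf225, Gm16048, Slc13a2, Serpina12, Dnaic1, 9530027J09Rik, Cdkn1a and Gm15611.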
